A study of Mus musculus with 30 samples.

Results

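A set of 8 genes of the imprinted growth control regions and of the oncofetal RNA-binding machinery, *H19*, *Igf2*, *Dlk1*, *Meg3*, *Igf2bp1*, *Igf2bp2*, *Igf2bp3* and *Lin28b*, were followed through the mouse colon during AOM/DSS treatment. They are 8 of the 46078 genes in the table of read counts, taken by name. Their names are carried by 10 rows, because *Dlk1* and *Meg3* each have a further copy on a patch scaffold of the assembly that held 0 counts and was left out. The genes were chosen by their counts, CPM and TPM in these 30 libraries, with their responses to treatment in view, so their treatment responses are given as a description and without a test.

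RNA came from the scraped epithelial layer of the colon of wild-type C57BL/6J mice of both sexes that were 5 to 10 weeks old at the start. Treated mice received the carcinogen azoxymethane (AOM) as a single injection of 10 mg/kg and then dextran sulfate sodium (DSS), which injures the colon lining, at 2.5% in the drinking water in 3 cycles, and were killed at 9 or 15 weeks. The vehicle group was given saline and collected at 9 weeks. With no vehicle mice at 15 weeks, treatment and time cannot be told apart there. The 30 libraries form 6 groups of 5, females and males of vehicle, AOM/DSS 9 weeks and AOM/DSS 15 weeks. A scrape can carry other layers of the wall, and in bulk RNA fewer cells of a type and less RNA per cell cannot be told apart.

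*H19* is a long noncoding RNA that is made from the maternal chromosome and is abundant in the fetus, where it is also the precursor of the microRNA miR-675. Its neighbour *Igf2*, made from the paternal chromosome, encodes a fetal growth factor, and both genes share enhancers and fall silent in most tissues after birth. *Dlk1*, which encodes a membrane protein related to the ligands of Notch, and *Meg3*, a long noncoding RNA, form a second imprinted pair of the same layout, with *Rian* and *Mirg* further along the maternal transcription unit of *Meg3*. The IGF2BP proteins bind and stabilize target mRNAs that include *Igf2*, and LIN28B blocks the maturation of the let-7 microRNAs. The let-7 family in turn represses *Lin28b* and *Igf2bp1* mRNAs, and this loop separates fetal from adult tissue.

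On GRCm38, *H19* (ENSMUSG00000000031) lies on the minus strand of chr7:142575529-142578143 and *Igf2* (ENSMUSG00000048583) on the same strand at chr7:142650766-142666816. *Dlk1* (ENSMUSG00000040856) at chr12:109452823-109463336 and *Meg3* (ENSMUSG00000021268) at chr12:109541001-109571726 are on the plus strand. *Igf2bp1* (ENSMUSG00000013415, chr11:95957163-96005940), *Igf2bp2* (ENSMUSG00000033581, chr16:22059009-22163299), *Igf2bp3* (ENSMUSG00000029814, chr6:49085221-49214954) and *Lin28b* (ENSMUSG00000063804, chr10:45376620-45470201) are each on the minus strand of a chromosome of their own.

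The sequences that follow tie the members to microRNAs, and the mature microRNAs are from RefSeq on GRCm38.p6. Capitals mark the seed, bases 2 to 8 from the 5′ end, which pairs with target mRNAs. Both arms of miR-675 lie inside *H19*, the 5p arm at chr7:142577112-142577133 and the 3p arm at chr7:142577078-142577099. The row of the hairpin gene *Mir675* itself held 0 counts in every library, in a poly(A)-selected preparation.
mmu-miR-675-5p: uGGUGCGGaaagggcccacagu
mmu-miR-675-3p: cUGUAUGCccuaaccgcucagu
mmu-let-7a-5p: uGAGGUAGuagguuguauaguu
mmu-let-7d-5p: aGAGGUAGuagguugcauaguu
mmu-let-7g-5p: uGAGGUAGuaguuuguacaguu
mmu-miR-98-5p: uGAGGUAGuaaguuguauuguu
mmu-let-7j: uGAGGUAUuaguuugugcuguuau
Of the 11 mature sequences of the let-7 family in RefSeq 10 share the seed GAGGUAG, among them let-7a, let-7d, let-7g and miR-98, which differ outside it, and let-7j has the seed GAGGUAU. Neither arm of miR-675 shares the let-7 seed.

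The complement of the common let-7 seed, CTACCTC, was searched on the transcript strand of the longest annotated 3′ UTR of each coding member and of the longest transcript of *H19* and *Meg3* (GENCODE, GRCm38). *Igf2bp1* held 4 matches in 6337 bases and *Lin28b* 4 matches in 4445 bases. Of the 604 genes with a 3′ UTR of like length to that of *Igf2bp1*, 34.3% held at least 1 match and 0.17% held 4 or more, and of the 1357 of like length to that of *Lin28b* the shares were 24.3% and 0.22%. *Igf2bp2* and *Igf2bp3* held 1 match each, and 12.04% and 13.28% of 3′ UTRs of like length held at least 1, and *Igf2* and *Dlk1* held 0. *Meg3* held 3 in 14548 bases, against 6 noncoding RNAs of like length, and *H19* held 0 in 2286 bases. The first match followed by an A in each of the RNA-binding genes is shown with the match in capitals.
Igf2bp1: gcgaagtaaaCTACCTCaaggt
Igf2bp2: caaataaaagCTACCTCaggtg
Igf2bp3: ttttactcaaCTACCTCaggta
Lin28b: ggcgggaagtCTACCTCatgca
They lie on the minus strand at chr11:95961774-95961795, chr16:22059469-22059490, chr6:49086783-49086804 and chr10:45381018-45381039. These are matches of letters, and the libraries, made from poly(A) RNA, do not measure mature let-7 or miR-675.

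Counts on genes ran from 9265804 to 30806392 per library, with female vehicle replicate 5 the lowest. The 8 epithelial markers summed to 9829 to 18535 CPM (counts scaled to library size by TMM) across the libraries. Male vehicle replicate 1 stood apart, with 5452 summed CPM over 7 smooth muscle markers against 2.14 to 213.9 in the other libraries. Several values that moved without these vehicle libraries are given beside the results they touch.

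Levels can be compared between genes per transcript length, in the authors' TPM. The RNA-binding gene *Igf2bp2* was the highest member with a median of 9.26 TPM over the 30 libraries, from 3.63 to 16.5, and *Meg3* followed at 4.26 TPM, from 0.372 to 16.1. *Dlk1* had a median of 0.212 TPM, *Igf2* of 0.141 TPM and *Igf2bp1* of 0.0808 TPM. *H19*, *Igf2bp3* and *Lin28b* had a median of 0, and *H19* reached 1.09 TPM in its highest library. *Lin28b* is listed at 0 TPM in every library although 12 reads were counted on it in all. By the median CPM of the 6 groups, every neighbour in the order of groups overlapped in its library values, in 5 of 5 neighbouring pairs for each of the 8 genes. The share over all genes was not determined, so nothing is drawn from these overlaps. All group medians of *Lin28b* were 0, so its groups had no order and had to overlap.

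**Figure D1:**
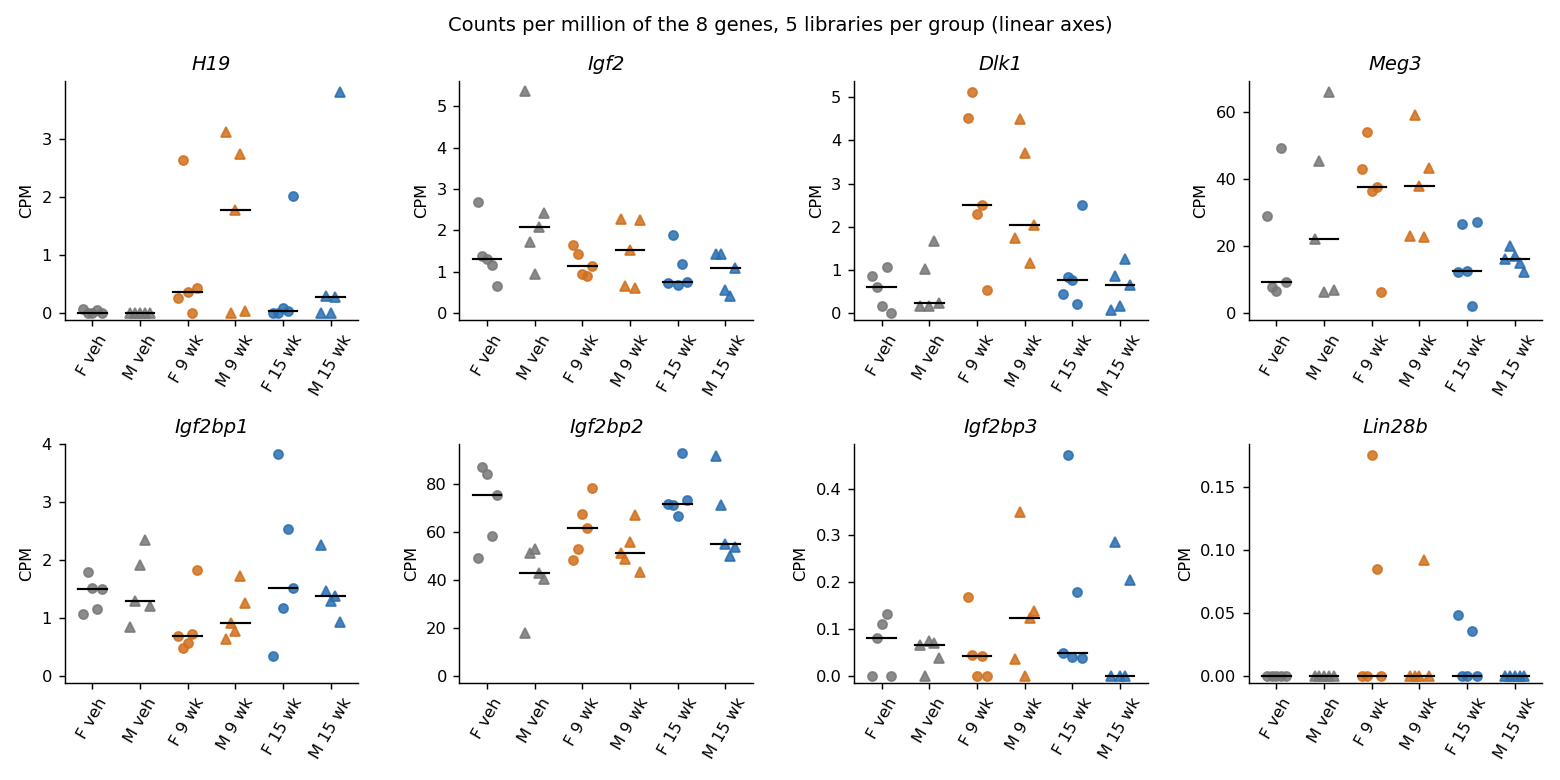
CPM (linear axes) of the 8 genes in each of the 30 libraries, by sex (F circles, M triangles) and treatment (veh vehicle, 9 wk and 15 wk AOM/DSS), with a bar at the group median. *H19* stays at or below 0.0704 CPM in the 10 vehicle libraries and reaches 3.80 CPM in 1 male library at 15 weeks, while *Dlk1* is highest at 9 weeks in both sexes.

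*H19* was near absent in vehicle colon and present in some, not all, treated colons. In female vehicle libraries its counts were 2, 0, 0, 1 and 0, and in the 5 male vehicle libraries they were 0, which allows up to 0.0976 to 0.128 CPM per library (a floor of 3 counts per library, counting error only). At 9 weeks the counts were 6, 61, 10, 0 and 8 in females and 88, 0, 51, 89 and 1 in males. At 15 weeks they were 0, 0, 2, 1 and 53 in females and 0, 7, 0, 4 and 111 in males. The treated libraries thus ranged from 0 to 111 counts within a sex and time, 6 of the 20 held 50 or more, none of the other 24 libraries of the series held more than 10, and each treated group overlapped with vehicle.

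Summed over libraries, *H19* had 314 counts at 9 weeks against 3 in vehicle, a ratio of 100.6 with a 95% counting interval of 34.1 to 490.3. At 15 weeks the ratio formed the same way was 64.4, with an interval of 21.7 to 315.1. In females the ratios were 27.0 at 9 weeks (8.94 to 133.7) and 17.6 at 15 weeks (5.70 to 87.7). Without female AOM/DSS 9 weeks replicate 2 the first was 9.52 (2.89 to 49.4), and without female AOM/DSS 15 weeks replicate 5, which held 53 of the 56 counts, the second was 1.21 (0.162 to 9.01). In males, whose vehicle libraries were all at 0, *H19* was at least 13.8-fold higher at 9 weeks and at least 7.88-fold higher at 15 weeks, against 3 counts per vehicle library. Without the highest library of each, these bounds were 11.1 and 1.27, as male AOM/DSS 15 weeks replicate 5 held 111 counts and the other 4 libraries 0 to 7. The 15-week values of *H19* thus rest mostly on 1 library in each sex. Over both sexes the ratio of 64.4 became 27.8 (9.10 to 138.0) without male AOM/DSS 15 weeks replicate 5. Of the 67 counts behind that ratio, female AOM/DSS 15 weeks replicate 5 held 53. A bound in males and a ratio in females cannot be ranked against each other. These intervals cover counting error and not the spread between libraries. Both times are set against the same vehicle libraries. The fitted log2 difference of *H19* to vehicle at 15 weeks was 5.65 and was 3.85 without female AOM/DSS 15 weeks replicate 5. At 15 against 9 weeks the fitted difference of *H19* was −0.75 (SE 0.95), and it was −2.55 without female AOM/DSS 15 weeks replicate 5 and −0.01 without female AOM/DSS 9 weeks replicate 2.

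The 6 libraries with 50 or more *H19* counts were all high in *Notum*, which encodes a secreted inhibitor of Wnt ligands that Wnt-activated intestinal cells make. *Notum* had 232 counts in female 9 weeks replicate 2, 345, 200 and 620 in male 9 weeks replicates 1, 3 and 4, 87 in female 15 weeks replicate 5 and 1016 in male 15 weeks replicate 5. Vehicle libraries held 1 to 13 *Notum* counts. High *Notum* also occurred with little *H19*, as male 15 weeks replicate 2 had 215 *Notum* and 7 *H19* counts and female 15 weeks replicate 3 had 73 and 2. In reverse, female 9 weeks replicates 1 and 3 had 6 and 10 *H19* counts with 4 and 5 of *Notum*.

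**Figure D2:**
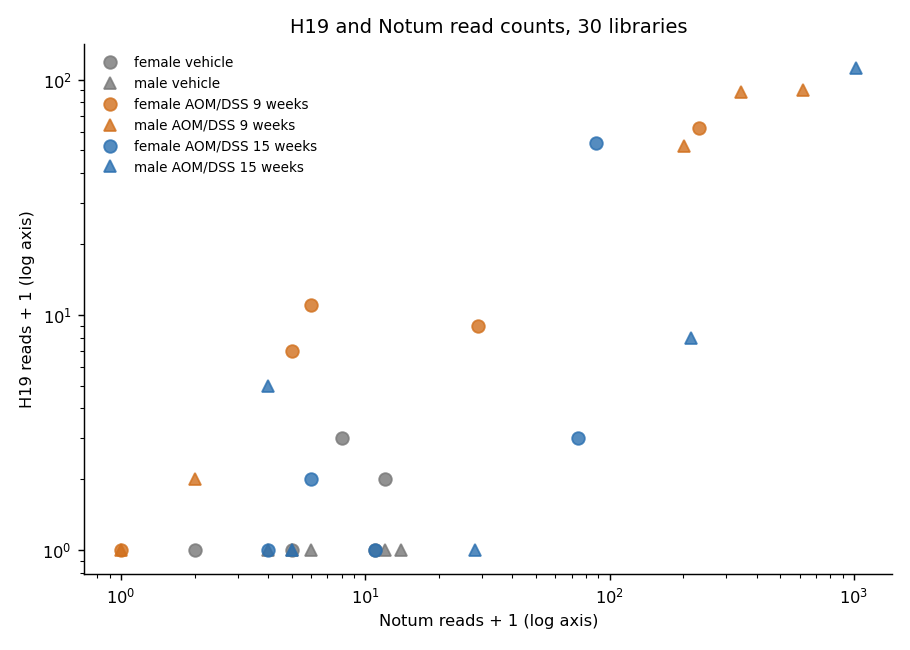
Read counts of *H19* against *Notum*, each plus 1 and on log axes, 1 point per library (females circles, males triangles; grey vehicle, orange AOM/DSS 9 weeks, blue AOM/DSS 15 weeks). The 6 libraries at 51 or more *H19* counts have 87 or more *Notum* counts, and the vehicle libraries lie at 13 or fewer *Notum* counts.

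Over the 30 libraries the Spearman correlation of *H19* with the mean log2 CPM of 6 genes of Wnt-driven tumours (*Notum*, *Axin2*, *Lgr5*, *Nkd1*, *Wif1*, *Prox1*) was 0.61, and 0.80 for the deviations from group means. Of these 6 markers, 3 rose and 1 fell at 9 weeks against vehicle (edgeR), beside 5.51% of all genes up and 2.78% down. At 15 weeks 2 rose and 1 fell, beside 3.46% up and 3.89% down. There 1 rose and 1 fell without male vehicle replicate 1 and female vehicle replicate 5. Their summed level ran from 39.6 to 64.7 CPM in vehicle, from 28.2 to 135.6 CPM at 9 weeks and from 30.1 to 197.3 CPM at 15 weeks, with no marker at 0 throughout a treatment. The medians were lower in treated colon, at 55.15 CPM in vehicle, 38.3 CPM at 9 weeks and 38.5 CPM at 15 weeks. *Lgr5* was the marker that fell, by 1.21 at 9 weeks and 1.52 at 15 weeks on the log2 scale. *Axin2* was not called, at −0.26 and −0.13. The part of tumour tissue in the *H19* result was not tested. Among all tested genes the pattern across libraries was most like that of *2700046A07Rik* (rho 0.84), *Dlx3* (0.78), *Notumos* (0.77), *Mcpt9* (0.74) and *Tnfrsf11b* (0.73). *H19* had 0 counts in 14 of the 30 libraries and 3 or fewer in 19, so every rank correlation of *H19* rests partly on ties and values near the floor. *Tnfrsf11b*, which encodes the decoy receptor osteoprotegerin, had 4 to 44 counts in vehicle and 213 to 393 in 5 of the 6 libraries rich in *H19*, with 97 in the sixth. *Notumos* and *2700046A07Rik* were at 0 counts in all vehicle libraries. The strand setting of the read counting is not given in the sources used here, and *Notumos* overlaps *Notum* on the opposite strand of chromosome 11, so reads of this pair cannot be told apart.

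*Igf2* was counted in every library and did not follow *H19*. Its counts in female vehicle were 76, 34, 35, 26 and 6, and in male vehicle 165, 40, 25, 60 and 65. At 9 weeks they were 39, 33, 27, 21 and 21 in females and 64, 15, 44, 20 and 65 in males, and at 15 weeks 15, 36, 17, 33 and 20 in females and 24, 35, 14, 6 and 32 in males. The highest library was male vehicle replicate 1, and every treated library lay within the range of vehicle in CPM or below it. *Igf2os*, an annotated antisense gene, overlaps *Igf2*, and since the strand setting of the counting is not given, reads of this pair cannot be told apart.

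The fitted log2 difference of *Igf2* to vehicle was −0.52 (SE 0.32) at 9 weeks and −0.91 (SE 0.33) at 15 weeks. Without male vehicle replicate 1 these were −0.28 and −0.67. At 15 against 9 weeks the difference was −0.39 (SE 0.33), and it turned to 0.38 with the mesenchyme marker level as a covariate. Over the 30 libraries *H19* and *Igf2* had a Spearman correlation of −0.13, and of 0.09 for the deviations from group means.

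*Igf2* moved with the markers of muscle and stroma, with a Spearman correlation of 0.70 to smooth muscle, 0.62 to endothelium and 0.61 to mesenchyme over the 30 libraries. The summed level of the 7 smooth muscle markers ran from 2.81 to 5452 CPM in vehicle with a median of 39.7, from 14.7 to 213.9 CPM at 9 weeks with a median of 52.1, and from 2.14 to 68.4 CPM at 15 weeks with a median of 10.9, with none at 0 throughout a treatment. At 15 weeks against vehicle 7 of these 7 markers fell, beside 3.89% of all genes, and 0 markers did without male vehicle replicate 1. Of the 14 mesenchyme markers 6 fell, and 1 did without that library. The part of muscle and stroma in the *Igf2* values was not tested. The genes most like *Igf2* across libraries were *Cxx1c* (rho 0.76), *Speg* (0.75), *Tnxb* (0.75), *Ncam1* (0.75) and *Cnn1* (0.75), of which *Speg* and *Cnn1* encode muscle proteins.

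*Dlk1* was highest at 9 weeks of AOM/DSS. In female vehicle its counts were 24, 15, 4, 24 and 0, and in male vehicle 5, 24, 4, 48 and 6. At 9 weeks they were 107, 119, 65, 59 and 10 in females and 49, 103, 107, 38 and 59 in males. At 15 weeks they were 9, 16, 19, 6 and 66 in females and 1, 21, 4, 18 and 19 in males. At 9 weeks 4 of 5 female libraries and 4 of 5 male libraries lay above every vehicle library in CPM, and at 15 weeks only female replicate 5 did.

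The fitted log2 difference of *Dlk1* was 2.22 (SE 0.55) at 9 weeks and 0.32 (SE 0.56) at 15 weeks against vehicle, and −1.90 (SE 0.55) at 15 against 9 weeks. Leaving out 1 library at a time the 9-week value stayed between 2.08 and 2.59. The 15-week value against vehicle was −0.07 without female AOM/DSS 15 weeks replicate 5 and 0.69 without male vehicle replicate 4.

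*Meg3* was more abundant and varied more widely within vehicle. Its counts in female vehicle were 819, 191, 173, 1113 and 86, and in male vehicle 675, 1057, 165, 1908 and 185. At 9 weeks they were 1012, 1251, 1034, 880 and 117 in females and 644, 1349, 1089, 741 and 1246 in males. At 15 weeks they were 255, 502, 313, 61 and 711 in females and 269, 485, 421, 216 and 354 in males. All 3 treatments overlapped, since vehicle alone spanned 6.18 to 65.9 CPM.

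Its fitted log2 difference was 0.57 (SE 0.44) at 9 weeks and −0.61 (SE 0.45) at 15 weeks against vehicle, and −1.18 (SE 0.45) at 15 against 9 weeks. The 15-week value was −0.28 without female vehicle replicate 4, while the difference between the times stayed between −1.32 and −1.04 as each library was left out in turn.

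Both genes of the *Dlk1* and *Meg3* region followed each other, with a Spearman correlation of 0.79 over the 30 libraries and 0.75 for the deviations from group means. *Rian* and *Mirg*, noncoding RNAs downstream of *Meg3* on chromosome 12, were the nearest to *Meg3* of all tested genes (rho 0.90 and 0.89), before *Hoxa9* (0.78), *Fam189a1* (0.77) and *Trim46* (0.76). *Rian* ran from 2.13 to 40.0 CPM in vehicle with a median of 5.51, from 1.51 to 39.6 CPM at 9 weeks with a median of 25.5, and from 0.713 to 18.5 CPM at 15 weeks with a median of 5.66. *Dlk1* was nearest to *Cd72* (0.86), *Rian* (0.85), *Myo1g* (0.84), *Il7r* (0.83) and *Lrrk1* (0.83), of which *Cd72* encodes a surface protein of B cells and *Il7r* the receptor of interleukin 7 on lymphocytes.

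The mean log2 CPM of 4 leukocyte markers (*Ptprc*, *Cd3e*, *Lyz2*, *Itgam*) correlated with *Dlk1* at 0.69 over the 30 libraries and at 0.30 for the deviations from group means, and with *Meg3* at 0.38 and 0.21. *Meg3* also correlated with mesenchyme (0.47), endothelium (0.46), mesothelium (0.42), enteric neurons and glia (0.42) and smooth muscle (0.41). For the deviations from group means these were 0.24, 0.32, 0.37, 0.39 and 0.28. *Dlk1* correlated with mesenchyme at 0.47 over the 30 libraries but at 0.10 for the deviations from group means. In the same order its values were 0.34 and 0.41 to mesothelium, and 0.34 and 0.33 to enteric neurons and glia. The mesothelium markers, of which 1 of 4 passed the count filter, had median sums of only 0.544 to 1.41 CPM by treatment. Those of enteric neurons and glia, of which 4 of 7 passed, had 2.53 to 3.69 CPM. Correlations with these lists rest on values near the floor. The 4 leukocyte markers summed to 22.4 to 102.0 CPM in vehicle with a median of 62.8, 57.3 to 199.2 CPM at 9 weeks with a median of 153.4 and 29.9 to 88.7 CPM at 15 weeks with a median of 66.5, and none was at 0 throughout a treatment. At 9 weeks 3 of the 4 rose against vehicle (edgeR), beside 5.51% of all genes, and at 15 against 9 weeks 2 fell, beside 1.91%. Female 9 weeks replicate 5, the lowest of its group in *Dlk1* and *Meg3*, was the lowest of the 9-week libraries in the summed level of leukocyte (57.3 CPM), mesenchyme (71.7 CPM) and endothelium markers (11.5 CPM), while by mean log2 CPM of the leukocyte markers 3 other 9-week libraries were lower. The part of these cells in the *Dlk1* and *Meg3* values was not tested.

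**Figure D3:**
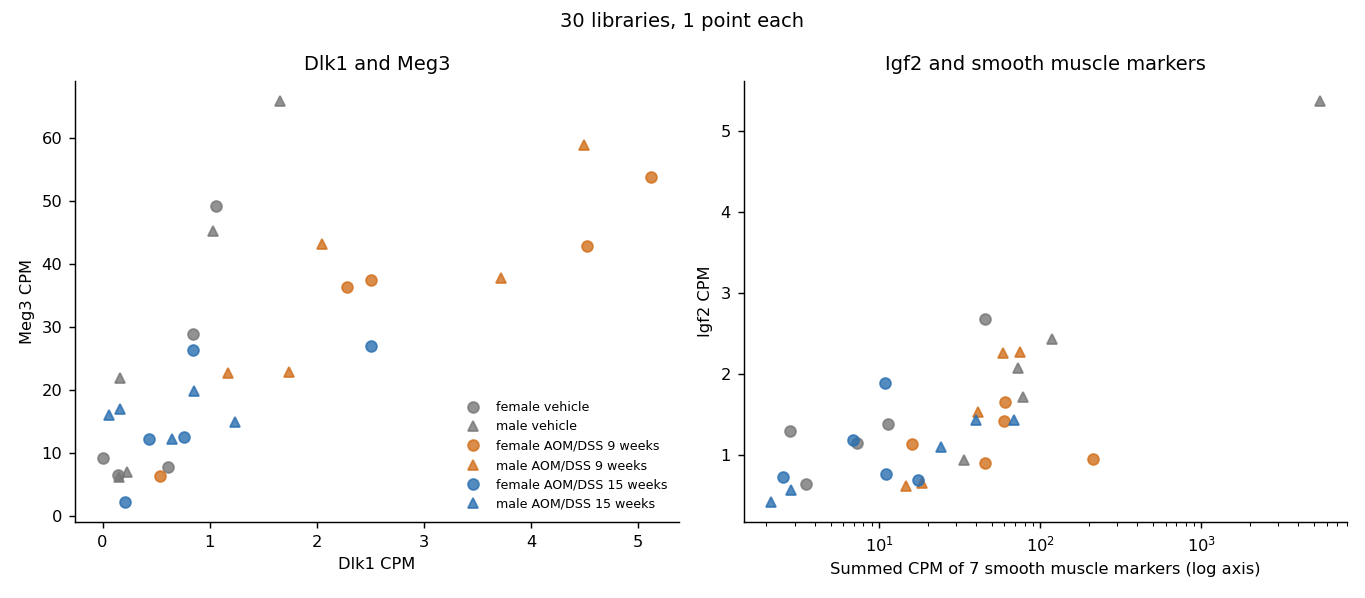
Left, CPM of *Meg3* against *Dlk1*, and right, CPM of *Igf2* against the summed CPM of 7 smooth muscle markers (log axis), 1 point per library (females circles, males triangles; grey vehicle, orange AOM/DSS 9 weeks, blue AOM/DSS 15 weeks). *Dlk1* and *Meg3* rise together with a Spearman correlation of 0.79, and the library at the upper right of the other panel is male vehicle replicate 1, at 5452 summed CPM.

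Among the RNA-binding genes *Igf2bp2*, which is widely made in adult tissue, was the only member of its family at a high level. Its CPM was 49.1, 87.2, 84.2, 58.2 and 75.7 in female vehicle and 17.6, 51.2, 52.9, 43.0 and 40.3 in male vehicle. At 9 weeks it was 48.3, 52.9, 67.7, 61.8 and 78.6 in females and 51.1, 48.9, 55.9, 67.3 and 43.3 in males. At 15 weeks it was 71.9, 71.5, 66.9, 93.2 and 73.3 in females and 91.9, 71.2, 55.0, 50.1 and 53.6 in males. In vehicle 4 of 5 females lay above all 5 males.

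The fitted log2 difference of *Igf2bp2* to vehicle was 0.09 (SE 0.15) at 9 weeks and 0.37 (SE 0.15) at 15 weeks, and −0.005 and 0.27 without male vehicle replicate 1. At 15 against 9 weeks the difference of *Igf2bp2* was 0.28 (SE 0.15). Its level was inverse to the markers of enteric neurons and glia (rho −0.71), endothelium (−0.66) and mesenchyme (−0.64), and for the deviations from group means these were −0.64, −0.39 and −0.38. The enteric neuron and glia markers that *Igf2bp2* was set against had median sums of only 2.53 to 3.69 CPM by treatment. Genes close to *Igf2bp2* across libraries were *Acacb* (0.93), *Pdk4* (0.91), *Prnp* (0.89) and *Spryd7* (0.89), and *Acacb* and *Pdk4* encode enzymes that govern fatty acid oxidation and pyruvate use.

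*Igf2bp1*, a fetal member of the family, was counted in every library at a low level. It had 30, 44, 41, 26 and 14 counts in female vehicle and 26, 30, 51, 68 and 32 in male vehicle. At 9 weeks it had 16, 11, 16, 17 and 34 in females and 18, 21, 22, 56 and 36 in males, and at 15 weeks 7, 73, 29, 71 and 40 in females and 38, 36, 32, 20 and 27 in males. At 9 weeks 4 of 5 females lay below every vehicle library in CPM, and the libraries at 15 weeks spanned the whole range of vehicle, from 0.335 to 3.83 CPM.

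Its fitted log2 difference was −0.62 (SE 0.31) at 9 weeks and 0.18 (SE 0.31) at 15 weeks against vehicle, and 0.80 (SE 0.32) at 15 against 9 weeks. The 15-week value was −0.01 without female AOM/DSS 15 weeks replicate 2. The genes nearest to it were *Fitm2* (rho 0.74), *Wnk4* (0.73), *Nudt22* (0.72), *Mbp* (0.70) and *Arhgef19* (0.70).

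*Igf2bp3* and *Lin28b* stayed at the edge of detection and did not pass the filter on low counts, so no fold change was fitted. *Igf2bp3* had 0 to 3 counts per library in vehicle, 0 to 8 at 9 weeks and 0 to 9 at 15 weeks. From 15, 23 and 30 summed counts its ratio to vehicle was 1.47 at 9 weeks (95% counting interval 0.736 to 3.04) and 2.17 at 15 weeks (1.13 to 4.34), intervals that leave out the spread between libraries. *Lin28b* had 0 counts in all 10 vehicle libraries. It had 5, 2 and 3 counts in 3 libraries at 9 weeks, 1 count in each of 2 libraries at 15 weeks and 0 in the others, and since each group mean was at or under the floor of 3 counts no fold is given. Its relative *Lin28a* had 0 to 5 counts in any library. With 0 reads, *Lin28b* could be up to 0.0976 to 0.128 CPM per library in male vehicle and 0.106 to 0.320 CPM in female vehicle, at 3 counts per library.

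**Figure D4:**
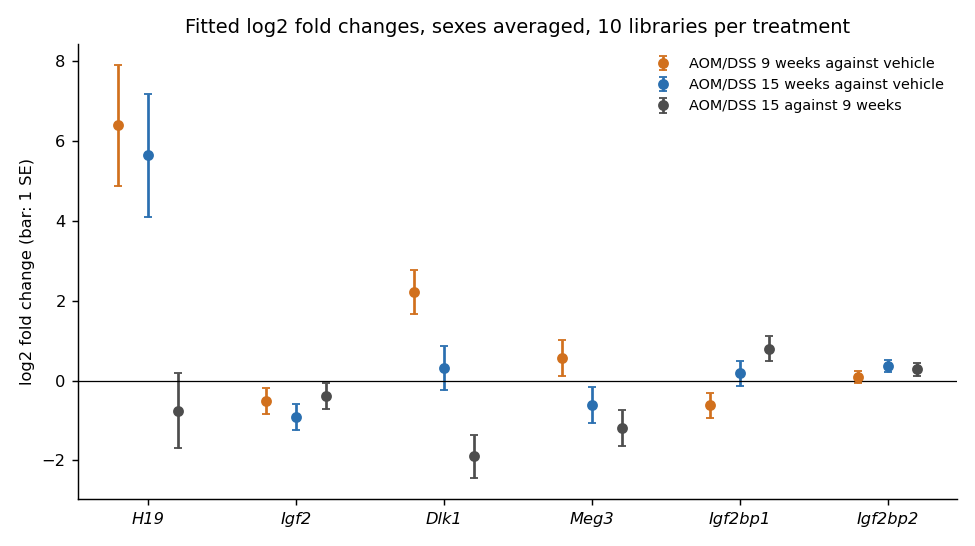
Fitted log2 fold changes (edgeR, sexes averaged) of the 6 genes that passed the filter on low counts, at 9 weeks and 15 weeks against vehicle and at 15 against 9 weeks, with bars of 1 standard error. *H19* is the furthest from 0, at 6.40 and 5.65 against vehicle, values that depend on the prior count because vehicle held 3 *H19* reads in all, and *Dlk1* stands at 2.22 at 9 weeks and 0.32 at 15 weeks.

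Whether the members differed between the sexes was tested, since sex played no part in choosing them. The study's methods describe the 5 libraries of a group as biological replicates. The fit took all 30 libraries, and a gene was called at an adjusted p under 0.05 over all 16261 tested genes, a log2 fold change beyond 0.4 and a mean FPKM of at least 1 in a compared group. Of the 8 members 6 passed the count filter, *H19* through the treated libraries where it is high, and under the FPKM minimum *H19*, *Igf2* and *Igf2bp1* could not be called in any sex comparison. *Dlk1* could be called where 9 weeks entered, so a call was open to 3 members there and to 2, *Igf2bp2* and *Meg3*, in vehicle, at 15 weeks and in the 15-week interaction. In vehicle 0 of the 6 members were called by edgeR (0.178% of all genes were, 0.141% higher and 0.0369% lower in males), and 1 had an unadjusted p under 0.05. With male vehicle replicate 1 and female vehicle replicate 5 left out, edgeR again called 0 members, and calls over all genes went from 29 to 8. DESeq2 called 1 member, *Igf2bp2*, and 2.93% of all genes. At 9 weeks 0 were called (0.0492% of all genes, 0.043% higher and 0.00615% lower in males) and at 15 weeks 0 (0.184%, 0.123% higher and 0.0615% lower), by edgeR and by DESeq2 (0.0676% and 1.34% of all genes with DESeq2), with 0 members at an unadjusted p under 0.05 in each.

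The member nearest to a difference was *Igf2bp2*, with a log2 fold change of −0.79 in vehicle males against females (SE 0.22, edgeR adjusted p = 0.0699). DESeq2 gave −0.79 with an adjusted p of 0.0208. The edgeR call was also made without female vehicle replicate 1 (adjusted p = 0.0129) or without male vehicle replicate 3 (adjusted p = 0.0355), and without male vehicle replicate 1, the lowest male library, the log2 fold change was −0.60. Further settings did not give the call, with an edgeR adjusted p of 0.0842 without the count filter and of 0.995 at the highest over all settings. The vehicle sexes also differed in muscle markers, of which 6 of 7 were called higher in males (median log2 fold change 6.40), beside 0.141% of all genes. Of the 14 mesenchyme markers 0 were called, at a median of 2.47. The part of muscle and stroma in the *Igf2bp2* difference was not tested. At 9 and 15 weeks the difference of *Igf2bp2* was −0.21 (SE 0.22) and −0.23 (SE 0.22). *H19* had a fitted log2 fold change in males against females of 1.07 (SE 1.32) at 9 weeks and 1.04 (SE 1.36) at 15 weeks, and the latter ran from −1.62 without male AOM/DSS 15 weeks replicate 5 to 4.63 without female AOM/DSS 15 weeks replicate 5. *Meg3* had 0.52 (SE 0.63) in vehicle, −0.02 without male vehicle replicate 4, and *Dlk1* had −0.70 (SE 0.79) at 15 weeks, 0.07 without female AOM/DSS 15 weeks replicate 5.

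The interactions tested whether males and females responded differently. None of the 6 tested members was called by edgeR in any of the 3 (0% of all genes were called in each), and 0 had an unadjusted p under 0.05, against 1205, 1245 and 363 of all genes. DESeq2 called 0 members and 0.00615%, 0.0246% and 0.00615% of all genes. The smallest unadjusted p was that of *Igf2bp2* at 9 weeks, 0.0714 (edgeR adjusted p = 0.705), for a male response that exceeded the female one by 0.58 on the log2 scale (SE 0.31). Without male vehicle replicate 1 this excess was 0.38.

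The surroundings of the members were followed in 76 further genes, 20 of the insulin-like growth factor axis, 29 imprinted genes and 27 partners and targets of let-7 and of the RNA-binding proteins. Of these 58 passed the count filter. At 9 weeks against vehicle 5 rose and 2 fell, 12.1% of the 58 beside 8.29% of all genes (5.51% up and 2.78% down), with a median log2 fold change of 0.01 in the lists and −0.02 in all genes. At 15 weeks 3 rose and 2 fell, 8.62% beside 7.35% (3.46% up and 3.89% down), with medians of −0.13 and −0.03. At 15 against 9 weeks 1 rose and 3 fell, 6.9% beside 2.32% (0.418% up and 1.91% down), with medians of −0.12 and −0.02.

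Within the growth factor axis binding proteins hold the ligands, proteases release them and inhibitors of the proteases oppose that release. Of the 17 tested genes of this axis 2 rose at 9 weeks. *Igfbp4*, a binding protein, rose by 1.45 on the log2 scale (SE 0.50, edgeR adjusted p = 0.0479), from a median of 5.99 CPM in vehicle to 24.9 CPM, and kept the call in 9 of 30 fits that each left out 1 library (adjusted p = 0.0998 without female AOM/DSS 9 weeks replicate 2). The *Igfbp4* call was also lost without the count filter. *Stc2*, an inhibitor of the protease that cleaves IGFBP4, rose by 0.64 (SE 0.18, adjusted p = 0.0128), from a median of 21.5 to 31.9 CPM, and kept its call in 30 of 30. The ligand gene *Igf1* had a log2 fold change of 1.43 (SE 0.48, adjusted p = 0.0411) but did not reach the FPKM minimum. The receptor genes *Igf1r* (−0.21, SE 0.18) and *Igf2r* (−0.16, SE 0.07) did not pass, and *Insr*, the insulin receptor gene, passed the adjusted p (0.00418) at −0.39 (SE 0.09) but not the minimum fold. *Igf1* and the receptor genes were chosen for mention after their values were seen.

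At 15 weeks the binding proteins *Igfbp3* and *Igfbp6* fell by 1.79 (SE 0.53, edgeR adjusted p = 0.023) and 2.18 (SE 0.71, adjusted p = 0.0355) on the log2 scale against vehicle. Neither passed without female vehicle replicate 1 (adjusted p = 0.133 and 0.278), and *Igfbp6* had 0 to 320 counts in vehicle. Both calls were lost on the compared libraries only, and that of *Igfbp6* also without the count filter and with the replicate block. *Stc2* was higher by 0.51 (SE 0.18, adjusted p = 0.0451), a call kept in 11 of 30 such fits and lost at the furthest without male vehicle replicate 5 (adjusted p = 0.0821). It was also lost with the mesenchyme marker level as a covariate (adjusted p = 0.110), on the compared libraries only and without the count filter. Against 9 weeks *Igfbp3* fell by 1.78 (edgeR adjusted p = 0.0478, kept in 10 of 30) and *Igfbp7* by 1.84 (adjusted p = 0.036, kept in 18 of 30). Without male AOM/DSS 9 weeks replicate 1 the adjusted p of *Igfbp3* was 0.106, and without female AOM/DSS 15 weeks replicate 1 that of *Igfbp7* was 0.0739. Between the times the *Igfbp3* call was also lost with RLE scaling and without the count filter. With the mesenchyme marker level as a covariate *Igfbp3*, *Igfbp6* and *Igfbp7* lost the calls above (adjusted p = 0.194 and 0.820 for *Igfbp3*, 0.871 for *Igfbp6* and 0.608 for *Igfbp7*). At 15 against 9 weeks this covariate left 0 calls over all genes, so the losses in that comparison are not particular to *Igfbp3* and *Igfbp7*.

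Of 16 tested imprinted genes *Cdkn1c*, a cyclin-dependent kinase inhibitor in the cluster next to *Igf2*, rose by 0.91 (SE 0.20, edgeR adjusted p = 0.00233) at 9 weeks and 0.83 (SE 0.20, adjusted p = 0.00808) at 15 weeks, and kept both calls in 30 of 30 fits. Its median was 5.97 CPM in vehicle, 10.8 CPM at 9 weeks and 9.27 CPM at 15 weeks. *Ascl2*, a transcription factor of intestinal stem cells in the same cluster, fell by 0.85 (SE 0.19, adjusted p = 0.00241) at 9 weeks, from a median of 4.98 to 2.69 CPM. It was higher by 0.65 (SE 0.19, adjusted p = 0.0465) at 15 than at 9 weeks, a call kept in 9 of 30 fits and lost at the furthest without female AOM/DSS 9 weeks replicate 4 (adjusted p = 0.0966). This call was also lost without the count filter, with the replicate block (edgeR adjusted p = 0.0678) and with the mesenchyme covariate (adjusted p = 0.345). The covariate left 0 calls over all genes in that comparison. *Snrpn*, a splicing protein gene, rose by 0.67 (SE 0.19, adjusted p = 0.0189) at 15 weeks, and had 0.55 with an adjusted p of 0.051 once the mesenchyme level was a covariate. *Rian* at 9 weeks had a log2 fold change of 1.13 (SE 0.54, adjusted p = 0.162) and did not pass.

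Among 25 tested partners and targets of let-7, *Arid3a*, which encodes a DNA-binding protein, rose by 1.47 (SE 0.24, edgeR adjusted p = 0.000102) at 9 weeks, from a median of 4.02 to 11.0 CPM, and lay 0.83 (SE 0.24, adjusted p = 0.0425) lower at 15 than at 9 weeks, a call kept in 16 of 30 fits and lost at the furthest without female AOM/DSS 9 weeks replicate 4 (adjusted p = 0.0902). With the mesenchyme covariate, which left 0 calls over all genes in this comparison, the difference of *Arid3a* was −0.43 (adjusted p = 0.538). The call was also lost with the replicate block, on the compared libraries only and without the count filter. *Ccnd1*, the cyclin D1 gene, rose by 0.52 (SE 0.16, adjusted p = 0.027) at 9 weeks and kept the call in 27 of 30. *Hmga2*, a chromatin protein gene and a classical let-7 target that is itself oncofetal, fell by 0.79 (SE 0.18, adjusted p = 0.00277) at 9 weeks, from a median of 15.9 to 9.65 CPM, and kept the call in 30 of 30 fits. At 15 weeks against vehicle 0 of the 25 were called.

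**Figure D5:**
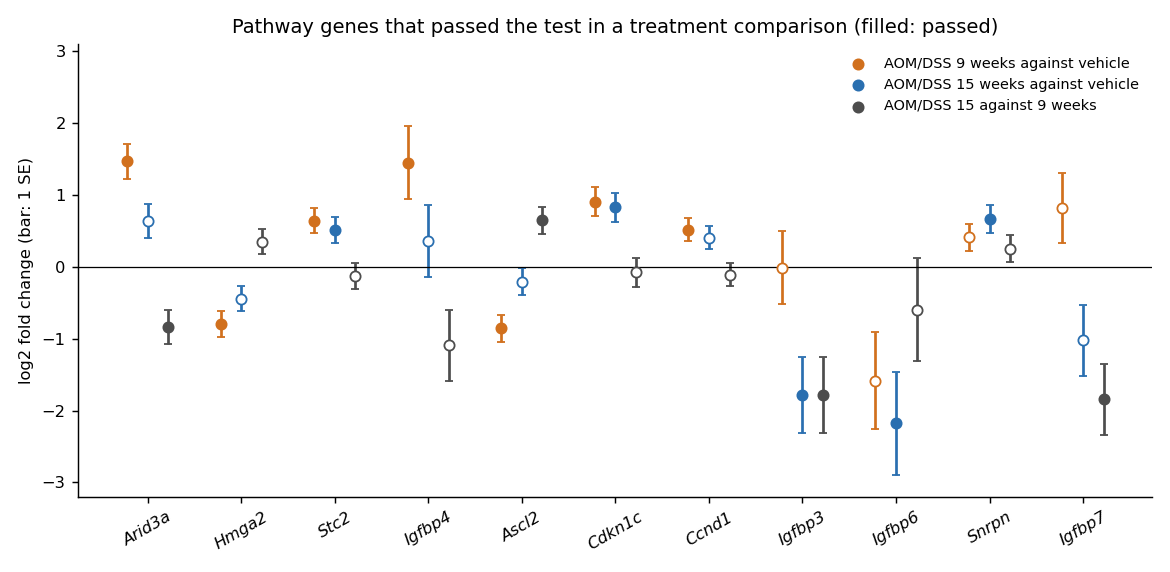
Log2 fold changes with bars of 1 standard error (edgeR) of the 11 genes of the further lists that passed the test in at least 1 comparison, at 9 weeks (orange) and 15 weeks (blue) against vehicle and at 15 against 9 weeks (grey). Filled points passed and open points did not, and *Cdkn1c* is filled above 0 at both times while *Hmga2* and *Ascl2* are filled below 0 at 9 weeks.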

How the data were processed

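The libraries were poly(A)-selected, stranded RNA-seq. The authors trimmed reads with Trim Galore, aligned them to GRCm38 with STAR and deposited read counts per gene from featureCounts, with FPKM and TPM values from StringTie; the other versions and the strand setting are not given in the sources used here. Samples were grouped by sex and treatment from the labels. Counts were tested with edgeR 4.0.16 (R 4.3.3), quasi-likelihood, TMM scaling, filterByExpr (16261 genes kept) and 1 coefficient per group. Treatment contrasts average the sexes. A call needed a Benjamini-Hochberg adjusted p under 0.05, an absolute log2 fold change over 0.4 and a mean FPKM of at least 1 in a compared group. CPM is TMM-scaled. Correlations are Spearman over 30 libraries, which share depth and cell make-up, and carry no p. The members, further lists and markers were chosen with earlier results of these data known. Genes named outside the members were those of the lists that passed, the 5 genes most like each member, and *Notum*. The marker genes, *Igf1*, the receptor genes, *Lin28a*, *Mir675* and *Igf2os* fall outside that rule and were named with values seen. A few genes are not reported here, and the leukocyte list was reduced to 4 genes for that reason after its values were seen. Alternatives were DESeq2 1.42.0, RLE scaling, the compared libraries only, no count filter, no FPKM minimum, a replicate block, a mesenchyme covariate and leaving out each library. The script was tested on simulated data. Library totals ran from 9265804 to 30806392 counts.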

Additional observations from a re-analysis of the deposited data

Results flagged for a closer look

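In 5 of 48 groups of 5 libraries, 1 library lay far from the others by Dixon's ratio, where chance gives about 1 in 20 for normally spread values. Counts near 0 are not spread so, and that rate does not hold for them. Groups at 0 throughout, *H19* in male vehicle and *Lin28b* in both vehicle groups and in males at 15 weeks, could not be flagged. *H19* in female AOM/DSS 15 weeks replicate 5 was the highest of its group at 1.07 log2 CPM (53 counts), against a group median of −3.09. *Igf2bp2* in male vehicle replicate 1, the library rich in smooth muscle RNA, was the lowest at 4.15 log2 CPM (542 counts), against a median of 5.43. *Igf2bp2* in female AOM/DSS 15 weeks replicate 4 was the highest at 6.54 log2 CPM (2612 counts), against 6.17. *Lin28b* in male AOM/DSS 9 weeks replicate 4 was the highest at −2.53 log2 CPM, which is 3 counts against 0 in the others. A single library above 0 is always flagged by this ratio. *Meg3* in female AOM/DSS 9 weeks replicate 5 was the lowest at 2.67 log2 CPM (117 counts), against 5.23.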

How the results depend on the processing

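Counts below are genes of the 3 further lists called by edgeR. At 9 weeks the 5 that rose became 8 without the FPKM minimum and 8 with the mesenchyme covariate, and the 2 that fell became 4 without the FPKM minimum. At 15 weeks the 2 that fell became 0 on the compared libraries only, 1 without the count filter, 5 without the FPKM minimum, 1 with the mesenchyme covariate and 1 with 2 vehicle libraries left out, an alternative chosen after seeing the data. At 15 against 9 weeks the 1 that rose became 0 without the count filter and with the mesenchyme covariate, and the 3 that fell became 5 with DESeq2, 1 without the count filter and 0 with the covariate. Leaving out 1 library at a time gave 3 to 7 up and 2 to 4 down at 9 weeks, 2 to 4 up and 0 to 5 down at 15 weeks, and 0 to 1 up and 0 to 6 down between the times. The 9-week rise was 3 without male vehicle replicate 3, female AOM/DSS 9 weeks replicate 1 or female AOM/DSS 9 weeks replicate 4, the 15-week fall was 0 without female vehicle replicate 1 and 5 without male vehicle replicate 4, and the counts between the times moved by over 1.5 times in 21 (up) and 17 (down) of 30 such fits. Members called between the sexes in vehicle went from 0 to 1 with DESeq2 and ran from 0 to 1 as libraries were left out, and stayed at 0 to 0 elsewhere. The fitted *Igf2* difference at 15 against 9 weeks turned from −0.39 to 0.38 with the mesenchyme covariate. The causes were not tested.

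Replicate numbers did not pair the libraries: over 75 same-numbered pairs the correlations of deviations lay between −0.583 and 0.542, at a median of −0.021. Under the replicate block the lists had 6 genes up at 9 weeks, 1 down at 15 weeks and 0 up at 15 against 9 weeks.

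Over all genes, calls at 15 weeks against vehicle went from 1195 to 669 with 2 vehicle libraries left out, those at 15 against 9 weeks from 378 to 590 with DESeq2 and 0 with the covariate, and those between the sexes in vehicle from 29 to 476 with DESeq2 and 8 with 2 vehicle libraries left out. The share up at 15 weeks was 47.03%, against 57.22% with the covariate and 37.96% without the FPKM minimum. Depth limits *H19* in vehicle, *Igf2bp3* and *Lin28b*.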
